A study of Homo sapiens with 18 samples.

Results

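The lysosome is the acidic compartment in which cells break down proteins, glycans, lipids and nucleic acids delivered by endocytosis and autophagy. Its lumen holds soluble hydrolases with their activator proteins, its membrane holds heavily glycosylated proteins, transporters and channels, and a proton pump, the V-ATPase, keeps the lumen acidic. TFEB, TFE3 and MITF are related basic helix-loop-helix leucine zipper transcription factors that bind E-box-type sequences near many of the genes that encode these proteins, and their activity is known to be set largely by their location in the cytoplasm or the nucleus, which mRNA levels do not show. Lysosomes and the autophagy that feeds them are known for supplying nutrients to pancreatic ductal carcinoma cells.

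The genes described here are 38 of the 26485 genes listed in the deposited tables: 35 that encode lysosomal hydrolases, activators, membrane proteins or V-ATPase subunits, and the 3 transcription factors. They were picked out by gene symbol, and all 38 were found in both runs. The list was drawn up with earlier results of these data known. Shares of members set beside those of all genes are therefore descriptions and not tests. The RNA came from PANC-1, an established human cell line of pancreatic ductal carcinoma, in 6 groups of 3 libraries, all harvested at 72 h. In the first sequencing run the cells had received either a control siRNA or 1 of PKR siRNA 1 and PKR siRNA 2, both directed against EIF2AK2, the gene of the kinase PKR. In the second run they had received the solvent DMSO, C16 at 400 nM or C16 at 800 nM, C16 being a small molecule that inhibits PKR. All siRNA groups were transfected and all C16 groups were exposed to solvent, and PANC-1 is the only line measured. Values are read counts per gene that the authors normalized within each run, called normalized counts here. The effect of the run cannot be told apart from that of the kind of treatment, and every test was made within a run.

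Reads assigned to genes ranged from 1512940 to 1873906 per library in the siRNA run and from 894145 to 1474308 in the C16 run. EIF2AK2 stood at 97.4 ± 5.21 normalized counts under the control siRNA, 11.1 ± 2.19 under PKR siRNA 1 and 8.65 ± 0.726 under PKR siRNA 2 (SD, n = 3 each), so the knockdown matched the labels, and it stood between 42.5 and 49.9 in the group means of the C16 run. The epithelial markers KRT8, KRT18 and KRT19 were abundant, KRT7 and CDH1 were low, and PTPRC, ALB and INS were at 0 in all 18 libraries. The epithelial markers themselves moved with the groups. Of the 6 markers KRT7, KRT8, KRT18, KRT19, CDH1 and EPCAM, 0 were called higher and 5 lower with PKR siRNA 1, and 3 higher and 2 lower with PKR siRNA 2, by the thresholds given below. With C16, where 5 of them were tested, 0 were higher and 2 lower at 400 nM, and 1 higher and 2 lower at 800 nM. Their summed level lay between 5358 and 5451 normalized counts under the control siRNA, 3052 and 3280 under PKR siRNA 1, and 9586 and 10233 under PKR siRNA 2. It lay between 7171 and 7572 with DMSO, 6033 and 6544 at 400 nM, and 5172 and 5685 at 800 nM. KRT8, KRT18 and KRT19 made up most of this sum, so it does not show the low markers. EPCAM stood at 103 normalized counts under the control siRNA, 12.3 under PKR siRNA 1 and 10.7 under PKR siRNA 2. The part of these marker shifts in the results that follow was not tested.

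Because E-boxes are what the TFEB family reads, the 300 bases from 250 before to 50 after each RefSeq start site (GRCh38.p14) were searched on both strands for CACGTG, for TCACGTG, which contains it, and for the palindrome GTCACGTGAC, which contains both. Promoters of 29 of the 38 members were in the table used. The 9 missing were ASAH1, ATP6V1A, ATP6V1H, CTSB, HEXA, LAMP2, NAGLU, PSAP and SGSH, so whether these carry a match was not examined. CACGTG was present for 8 of them (27.6%), against 8.77% of all 27305 genes in the table. A gene counted when any of its promoters held a match. Counted per promoter, the shares were 18.2% of the 44 member promoters and 7.26% of all 35116. Since the family is known for E-boxes near lysosome genes, the shares in this paragraph are descriptions and not tests. TCACGTG was present for 7 members (24.1%, against 4.49% of all genes), and GTCACGTGAC for 2 members, GAA and MCOLN1 (6.90%, against 0.421%). A match is a description of the letters and not a measured binding site. The matches of MCOLN1, GAA, LAMP1, NEU1, CTSD, CTSA and ATP6V0D1 are shown because these genes carry the T-flanked form and behaved differently from one another, as described below; that of CD63 is the 1 E-box without the flanking T. Each is written 5′ to 3′ on the gene's strand with the match in capitals; CTSD carries the T-flanked form on the opposite strand, so that it reads CACGTGA.
MCOLN1, chr19:7522570-7522600, plus strand: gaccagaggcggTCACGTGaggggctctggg
MCOLN1, chr19:7522598-7522627, plus strand: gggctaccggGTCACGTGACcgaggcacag
GAA, chr17:80101491-80101524, plus strand: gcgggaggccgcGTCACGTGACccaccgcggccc
GAA, chr17:80101538-80101567, plus strand: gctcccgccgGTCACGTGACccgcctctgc
LAMP1, chr13:113297034-113297114, plus strand: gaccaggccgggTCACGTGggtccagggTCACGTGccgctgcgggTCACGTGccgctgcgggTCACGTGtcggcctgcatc
NEU1, chr6:31862933-31862960, minus strand: gatgctgcgtgaTCACGTGggaggagat
CTSD, chr11:1763957-1763986, minus strand: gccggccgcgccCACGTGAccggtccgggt
CTSA, chr20:45891280-45891309, plus strand: ggaggaagactgTCACGTGgcgccggagtt
CTSA, chr20:45891297-45891326, plus strand: tggcgccggagtTCACGTGactcgtacaca
ATP6V0D1, chr16:67481199-67481229, minus strand: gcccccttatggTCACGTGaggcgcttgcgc
CD63, chr12:55729172-55729201, minus strand: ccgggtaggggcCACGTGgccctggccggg

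In MCOLN1 the matches are centred at -38 and -11 relative to the start site, and both copies of the palindrome in GAA lie at -73 and -28. LAMP1 holds 6 T-flanked E-boxes in its window, of which the 4 farthest upstream are printed.

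The first question was how these genes differed between each treatment, siRNA or C16, and its own control. A gene was called when its adjusted p from limma (Benjamini-Hochberg, over all genes tested) was under 0.05 and its fold change over 1.5, the thresholds the study used. Of the 37 members tested in the siRNA run, 4 rose and 5 fell with PKR siRNA 1, which is 10.8% and 13.5% of them, against 8.53% and 12.6% of all 10593 genes tested. With PKR siRNA 2, 9 members rose and 6 fell (24.3% and 16.2%, against 10.8% and 12.8% of all genes). In the C16 run all 38 members were tested. At 400 nM 4 rose and 0 fell (10.5% and 0%, against 7.08% and 5.45% of all 9963 genes tested). At 800 nM 5 rose and 5 fell (13.2% in each direction, against 11.6% and 14.1% of all genes). The shares of members called were thus near those of all genes with PKR siRNA 1 and at 800 nM C16, and the median log2 fold change of the members lay between 0.02 and 0.14 in the 4 comparisons. In such bulk RNA, fewer cells of a kind and less RNA per cell cannot be told apart.

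**Figure D1:**
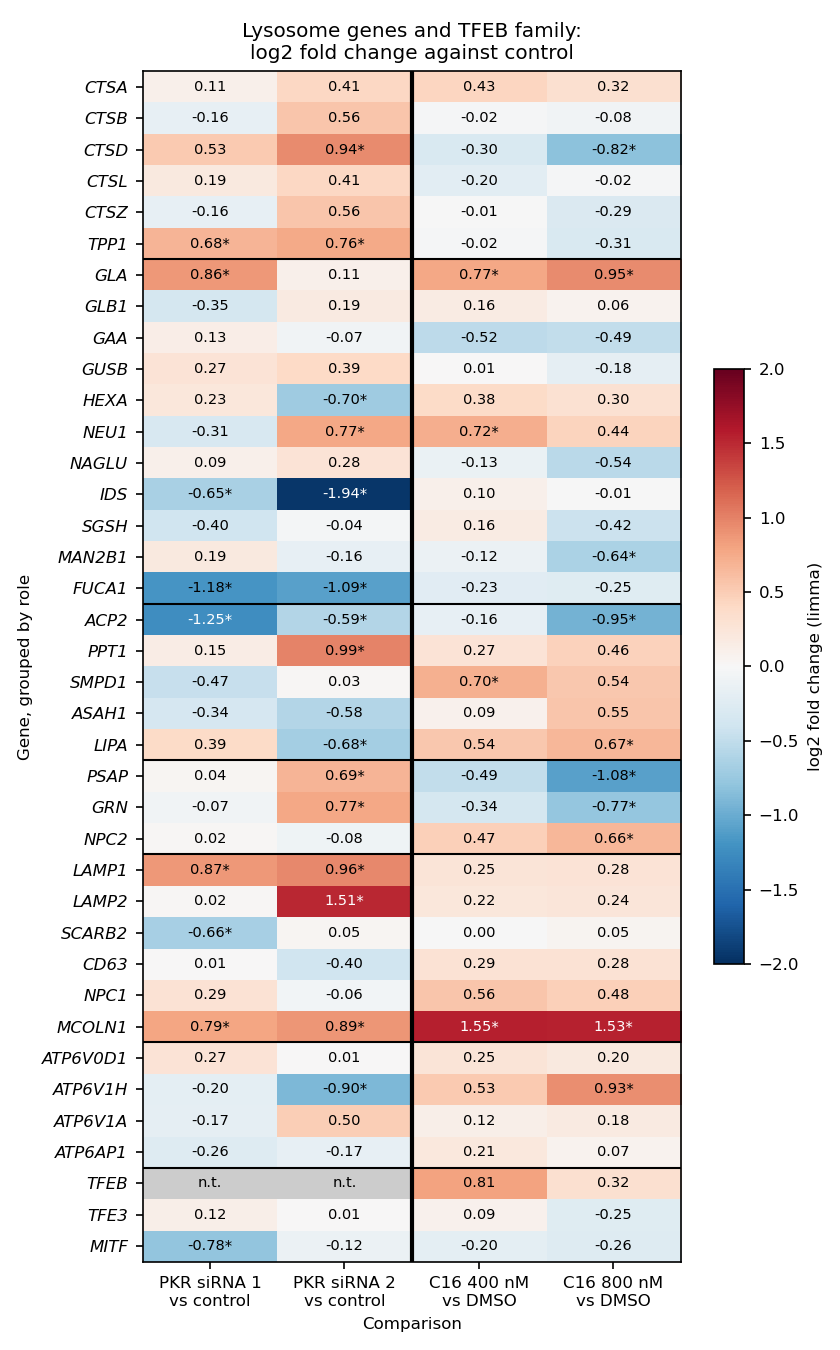
Log2 fold changes of the 38 members (rows, grouped by role with lines between roles) against their own control in 4 comparisons (columns), coloured from -2 to 2; an asterisk marks a called gene and n.t. a gene not tested. MCOLN1 is the only row with an asterisk in all 4 columns, and the rows PSAP, CTSD and GRN turn from red under PKR siRNA 2 to blue under 800 nM C16.

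The members did not move as a block. Of the 38, 17 were called in none of the 4 comparisons with a control, 21 in 1 or more and 13 in 2 or more. For the 37 members tested in both runs these 21 and 13 are 56.8% and 35.1%, against 49.9% and 22.2% of the 9821 genes tested in both. MCOLN1 alone among the members rose in all 4, as did 0.102% of those genes. TPP1, LAMP1 and MCOLN1 rose and IDS, FUCA1 and ACP2 fell with each siRNA, and GLA and MCOLN1 rose at each dose of C16. The 2 siRNAs share their control libraries, and the 2 doses share the DMSO libraries. The shares of all genes called with both siRNAs, or at both doses, were not worked out.

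MCOLN1 encodes mucolipin 1 (TRPML1), the cation channel through which calcium leaves the lysosome, and lies on chr19:7522610-7534009 (hg38, plus strand). Its normalized counts were 31.8, 38.7 and 26.5 under the control siRNA, 49.98, 57.1 and 61.8 under PKR siRNA 1, and 61.7, 56.8 and 62.1 under PKR siRNA 2. They were 8.74, 9.52 and 8.38 with DMSO, 35.1, 24.2 and 25.5 at 400 nM C16, and 27.2, 26.8 and 28.6 at 800 nM. Every treated library lay above every library of its own control, with no overlap in any of the 4 comparisons. Lack of overlap, in either direction, was common in these data. It held for 51.7% and 54.3% of all genes tested with PKR siRNA 1 and 2. At 400 and 800 nM C16 it held for 39.6% and 51.8%. Between the siRNAs it held for 60.6%, and between the doses for 30.4%. The rise was 0.79 on the log2 scale with PKR siRNA 1 (standard error 0.17, limma adjusted p = 8.32e-05) and 0.89 with PKR siRNA 2 (standard error 0.17, limma adjusted p = 9.63e-06). With C16 it was 1.55 at 400 nM (standard error 0.26, limma adjusted p = 3.45e-06) and 1.53 at 800 nM (standard error 0.26, limma adjusted p = 1.73e-06). All DMSO libraries lay below the mean of 10 normalized counts required for testing. MCOLN1 therefore entered the test in the C16 run only through the C16 groups, where it was higher, and its control level there rests on few reads. The doses did not differ detectably, the 800 nM minus 400 nM difference being -0.02 on the log2 scale with a 95% interval from -0.54 to 0.50. In an exact permutation test (two-sided) each of the 4 comparisons with a control gave p = 0.1, the smallest value that 3 libraries against 3 allow. MCOLN1 is on the study's own list of genes raised in these samples, so its direction is not independent evidence.

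ACP2, the lysosomal acid phosphatase (chr11:47239302-47248847, minus strand), went the other way. It stood at 77.0, 95.6 and 89.1 normalized counts under the control siRNA, 37.8, 39.9 and 30.9 under PKR siRNA 1, and 54.7, 53.6 and 64.0 under PKR siRNA 2. The values of the C16 run were 20.4, 28.6 and 26.7 with DMSO, 21.3, 24.2 and 21.3 at 400 nM C16, and 18.2, 11.0 and 9.54 at 800 nM. Both siRNA groups and the 800 nM group lay wholly below their controls, whereas the 400 nM libraries lay within the DMSO range. ACP2 fell by 1.25 on the log2 scale with PKR siRNA 1 (standard error 0.16, limma adjusted p = 2.48e-10), by 0.59 with PKR siRNA 2 (standard error 0.16, limma adjusted p = 0.00115) and by 0.95 at 800 nM (standard error 0.27, limma adjusted p = 0.00268). At 400 nM its log2 fold change was -0.16 (standard error 0.27, limma adjusted p = 0.700). The PKR siRNA 2 value stood just past the fold threshold and the call was lost in 8 of the alternatives, among them edgeR (-0.58) and DESeq2 (-0.58), and without control siRNA replicate 2 (-0.53) or 3 (-0.58) or PKR siRNA 2 replicate 1 (-0.56) or 2 (-0.55). ACP2 is likewise on the study's list of genes lowered in these samples, and 7.43% of its exon bases overlap NR1H3 on the opposite strand, whose reads can be told apart only if the counting used strand, which is not given in the sources used here.

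Of the 3 transcription factors only MITF was called against a control, with PKR siRNA 1, beside 49.9% of all genes tested in both runs. TFEB was the least abundant member per length of gene under the control siRNA, with 3.08, 4.30 and 3.79 normalized counts under the control siRNA, 8.89, 7.26 and 8.68 under PKR siRNA 1 and 7.96, 6.43 and 3.76 under PKR siRNA 2, and it fell below the filter on low values there. Without that filter its log2 fold changes were 0.98 with PKR siRNA 1 (limma adjusted p = 0.115) and 0.54 with PKR siRNA 2 (limma adjusted p = 0.443). The PKR siRNA 1 libraries lay above the controls, on fewer than 10 normalized counts in each. In the C16 run TFEB stood at 8.74, 4.76 and 12.9 with DMSO, 18.1, 15.0 and 12.8 at 400 nM and 10.1, 13.4 and 8.59 at 800 nM. Those groups overlapped, and neither the log2 fold change of 0.81 at 400 nM (standard error 0.35) nor that of 0.32 at 800 nM (standard error 0.35) was called. Without DMSO replicate 3 the 400 nM value became 1.11 and was called (limma adjusted p = 0.0302), and without DMSO replicate 2 the 800 nM value turned to -0.016.

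TFE3 was the most abundant of the 3 factors per length of gene in both control groups. Its normalized counts were 135, 177 and 132 under the control siRNA, 159, 163 and 157 under PKR siRNA 1, and 141, 154 and 146 under PKR siRNA 2. They were 101, 88.6 and 101 with DMSO, 97.8, 93.4 and 120 at 400 nM C16, and 72.6, 79.2 and 93.5 at 800 nM. Treated and control libraries overlapped in all 4 comparisons and no change was called. The 95% intervals of its log2 fold change ran from -0.08 to 0.33 with PKR siRNA 1, from -0.20 to 0.21 with PKR siRNA 2, from -0.17 to 0.35 at 400 nM and from -0.51 to 0.01 at 800 nM. The sign of the value near 0 with PKR siRNA 2 and at 400 nM turned when single libraries were left out.

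MITF, the member of the family best known from melanocytes, stood at 46.2, 55.9 and 52.1 normalized counts under the control siRNA, 31.1, 29.0 and 28.0 under PKR siRNA 1, and 43.8, 47.2 and 50.8 under PKR siRNA 2. With DMSO the values were 7.77, 16.2 and 16.0, at 400 nM C16 10.6, 10.4 and 11.7, and at 800 nM 12.1, 9.75 and 9.54. Only the PKR siRNA 1 libraries lay apart from their controls. MITF fell by 0.78 on the log2 scale there (standard error 0.18, limma adjusted p = 0.000193), against -0.12 with PKR siRNA 2, and the difference between the siRNAs was itself called (0.67, standard error 0.18, limma adjusted p = 0.00105).

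**Figure D2:**
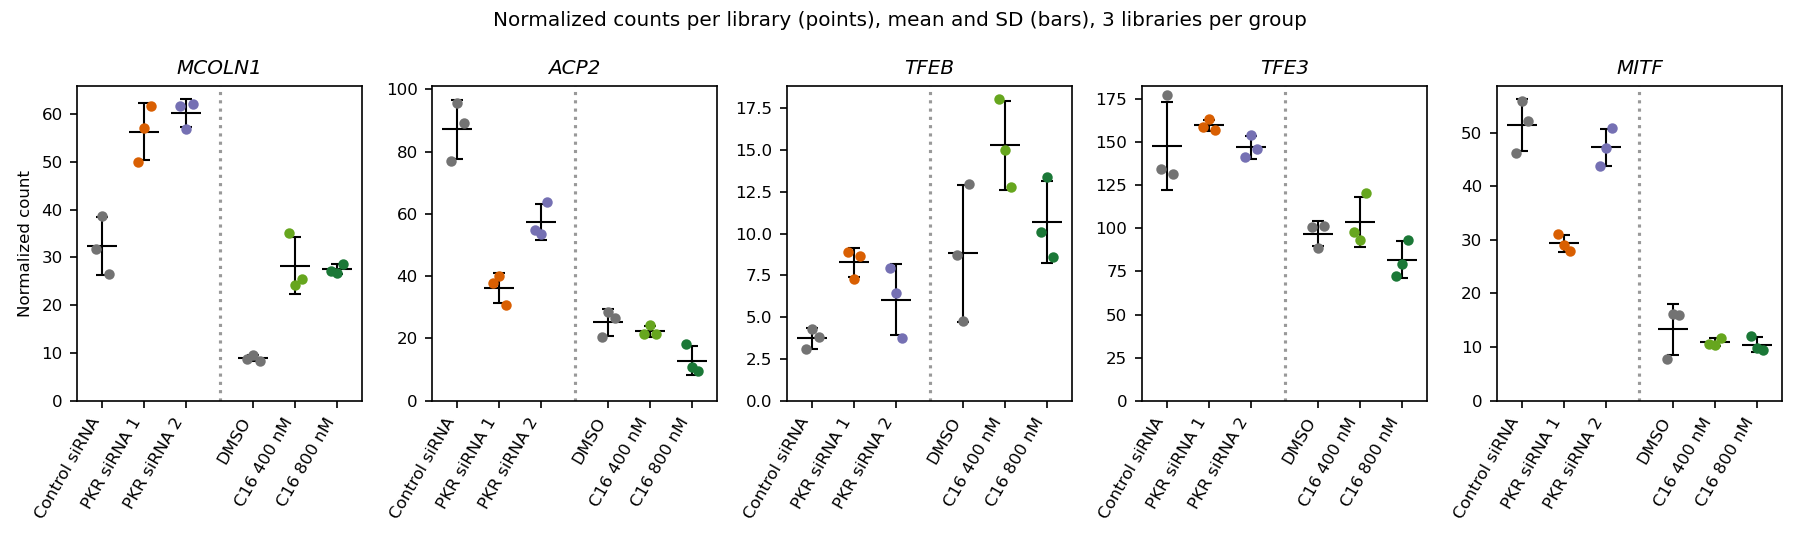
Normalized counts (vertical axes, each from 0 and of its own scale) of MCOLN1, ACP2, TFEB, TFE3 and MITF in each library (points) of the 6 groups, with the mean and SD of 3 libraries (bars); the dotted line separates the runs, between which levels are not compared. All treated MCOLN1 points lie above their controls, whereas the TFE3 points of treated and control groups overlap.

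Among the soluble proteins that assist the hydrolases, prosaposin and progranulin responded in opposite directions to PKR siRNA 2 and to C16. PSAP encodes prosaposin, the precursor of the saposins that present sphingolipids to their hydrolases (chr10:71816298-71851325, minus strand), and was the most abundant member per length of gene in both control groups. It stood at 3706, 3607 and 3750 normalized counts under the control siRNA, 3818, 3848 and 3742 under PKR siRNA 1, and 6053, 6032 and 5711 under PKR siRNA 2. The libraries of the C16 run held 4284, 4309 and 4102 with DMSO, 3216, 2864 and 2984 at 400 nM, and 1981, 2128 and 1899 at 800 nM. The PKR siRNA 1 libraries overlapped the controls, the PKR siRNA 2 libraries all lay above them, and the C16 libraries stepped down with dose with no overlap between groups. PSAP rose by 0.69 on the log2 scale with PKR siRNA 2 (standard error 0.04, limma adjusted p = 1.23e-27) and fell by 1.08 at 800 nM (standard error 0.05, limma adjusted p = 1.10e-25). At 400 nM the log2 fold change of -0.49 (standard error 0.05) did not reach the fold threshold.

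GRN encodes progranulin, a secreted glycoprotein that is cut into granulins in the lysosome. Its normalized counts were 192, 262 and 229 under the control siRNA, 215, 229 and 201 under PKR siRNA 1, and 383, 396 and 378 under PKR siRNA 2. They were 188, 156 and 158 with DMSO, 136, 143 and 116 at 400 nM C16, and 92.8, 98.7 and 101 at 800 nM. As for PSAP, the PKR siRNA 2 libraries lay above and the 800 nM libraries below all of their controls, with log2 fold changes of 0.77 (standard error 0.08, limma adjusted p = 1.91e-12) and -0.77 (standard error 0.11, limma adjusted p = 6.89e-08). NPC2, the soluble carrier that takes cholesterol out of the lumen, was called at 800 nM alone (0.66 on the log2 scale, standard error 0.13, limma adjusted p = 5.10e-05), a call that was lost without DMSO replicate 1 (0.55) or C16 800 nM replicate 3 (0.58).

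Of the 6 proteases and peptidases, CTSD and TPP1 were called against a control, beside 49.9% of all genes tested in both runs. CTSD encodes cathepsin D, the main aspartic protease of the lysosome (chr11:1752752-1763992, minus strand), and was the second most abundant member per length. It stood at 2084, 2160 and 2116 normalized counts under the control siRNA, 3031, 3196 and 2949 under PKR siRNA 1, and 4088, 4004 and 4132 under PKR siRNA 2. In the second run the libraries held 1437, 1407 and 1454 with DMSO, 1243, 1184 and 1068 at 400 nM C16, and 821, 823 and 797 at 800 nM. No group overlapped another within a run. The rise was called with PKR siRNA 2 (0.94 on the log2 scale, standard error 0.04, limma adjusted p = 6.90e-34), and the value of 0.53 with PKR siRNA 1 (standard error 0.04) lay below the fold threshold. CTSD fell by 0.82 on the log2 scale at 800 nM (standard error 0.06, limma adjusted p = 1.61e-17), with -0.30 at 400 nM.

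TPP1, tripeptidyl peptidase 1, stood at 354, 372 and 330 normalized counts under the control siRNA, 580, 532 and 585 under PKR siRNA 1, and 598, 565 and 623 under PKR siRNA 2. In the C16 run it stood at 186, 210 and 267 with DMSO, 212, 249 and 188 at 400 nM C16, and 178, 175 and 175 at 800 nM. Both siRNA groups lay above the controls and close to each other, the difference between them being 0.07 on the log2 scale with a 95% interval from -0.06 to 0.20. TPP1 rose by 0.68 and 0.76 on the log2 scale with PKR siRNA 1 and 2 (standard error 0.07 each, limma adjusted p = 1.06e-14 and 9.47e-17). The cathepsins CTSB and CTSZ and the carboxypeptidase CTSA were not called against any control. CTSB and CTSZ each stood at 0.56 on the log2 scale with PKR siRNA 2, just short of the threshold, and both were higher than with PKR siRNA 1 (0.72 and 0.73). CTSL ranged from -0.20 to 0.41 over the 4 comparisons. Reads of CTSA are uncertain, since 23.4% of its exon bases overlap genes on the opposite strand.

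**Figure D3:**
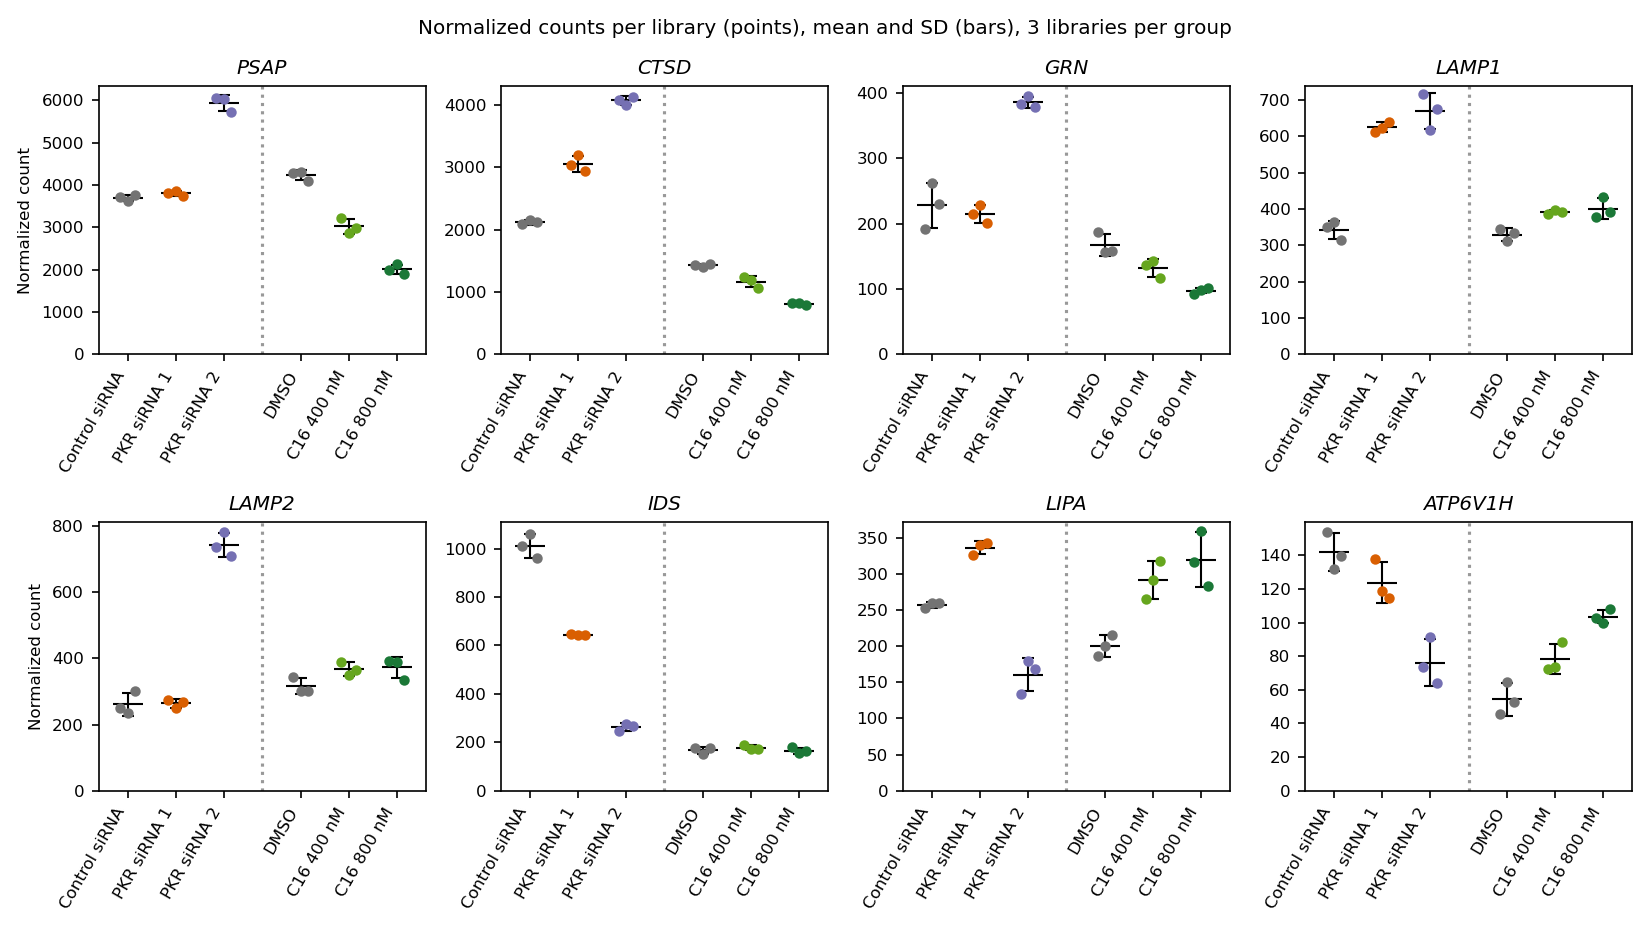
Normalized counts (vertical axes from 0) of PSAP, CTSD, GRN, LAMP1, LAMP2, IDS, LIPA and ATP6V1H in each library (points), with the mean and SD of 3 libraries per group (bars); the dotted line separates the runs. Within the siRNA run PSAP, CTSD and GRN are highest and LIPA and ATP6V1H lowest with PKR siRNA 2. Within the C16 run PSAP, CTSD and GRN step down from DMSO to 800 nM, and LIPA and ATP6V1H are highest at 800 nM.

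Because PSAP and CTSD are so abundant, they set the summed level of the set. All 38 members held 0.778 ± 0.00108% of all normalized counts under the control siRNA, 0.866 ± 0.0141% under PKR siRNA 1 and 1.06 ± 0.00962% under PKR siRNA 2, and 0.912 ± 0.00657%, 0.846 ± 0.0266% and 0.730 ± 0.0200% with DMSO, 400 nM and 800 nM C16 (SD, n = 3 each). PSAP and CTSD made up between 35.4% of that sum, at 800 nM, and 55.6%, with DMSO. Without these genes the order in the C16 run turned: the other members held 0.405 ± 0.00433% with DMSO, 0.471 ± 0.00333% at 400 nM and 0.472 ± 0.00853% at 800 nM. In the siRNA run the order stayed, at 0.442 ± 0.00320%, 0.460 ± 0.00410% and 0.486 ± 0.00451%. These sums are descriptions and were not tested.

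Of the 11 hydrolases of glycans and glycosaminoglycans, 6 were called in at least 1 comparison with a control, beside 49.9% of all genes tested in both runs. IDS, iduronate 2-sulfatase of heparan and dermatan sulfate breakdown (chrX:149478764-149505354, minus strand), had the largest change of any member. It stood at 1010, 1062 and 962 normalized counts under the control siRNA, 649, 641 and 642 under PKR siRNA 1, and 245, 274 and 268 under PKR siRNA 2. In the C16 run it stood at 175, 150 and 175 with DMSO, 188, 174 and 172 at 400 nM, and 180, 155 and 163 at 800 nM. The siRNA groups were all apart, and the C16 groups overlapped. IDS fell by 0.65 on the log2 scale with PKR siRNA 1 (standard error 0.06, limma adjusted p = 1.20e-14) and by 1.94 with PKR siRNA 2 (standard error 0.06, limma adjusted p = 9.63e-42). With C16 the 95% intervals ran from -0.10 to 0.30 at 400 nM and from -0.21 to 0.19 at 800 nM. IDS has a closely similar pseudogene copy, so how its reads were shared is uncertain.

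FUCA1, alpha-L-fucosidase, stood at 56.5, 60.2 and 64.5 normalized counts under the control siRNA, 28.9, 24.5 and 25.1 under PKR siRNA 1, and 26.9, 26.8 and 30.1 under PKR siRNA 2. The values of the C16 run were 34.0, 21.9 and 23.6 with DMSO, 19.1, 21.9 and 25.5 at 400 nM C16, and 22.2, 24.4 and 19.1 at 800 nM. It was lower with both siRNAs without overlap, and the C16 groups overlapped. FUCA1 fell by 1.18 and 1.09 on the log2 scale with PKR siRNA 1 and 2 (standard error 0.19 each, limma adjusted p = 3.92e-07 and 2.11e-06).

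GLA, alpha-galactosidase A, rose with PKR siRNA 1 and with both C16 doses, and stood at 0.11 on the log2 scale with PKR siRNA 2, which was not called. Its normalized counts were 131, 120 and 142 under the control siRNA, 249, 239 and 230 under PKR siRNA 1, and 141, 127 and 157 under PKR siRNA 2. They were 84.5, 69.5 and 69.3 with DMSO, 137, 122 and 122 at 400 nM, and 125, 165 and 144 at 800 nM. The rise was 0.86 on the log2 scale with PKR siRNA 1 (standard error 0.10, limma adjusted p = 7.00e-12), 0.77 at 400 nM (standard error 0.12, limma adjusted p = 9.34e-07) and 0.95 at 800 nM (standard error 0.12, limma adjusted p = 2.42e-09). The difference between the siRNAs, -0.76, was called (standard error 0.10, limma adjusted p = 3.08e-10).

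NEU1, the lysosomal sialidase, rose with PKR siRNA 2 and not with PKR siRNA 1, where it stood at -0.31 on the log2 scale. It stood at 137, 142 and 156 normalized counts under the control siRNA, 123, 123 and 103 under PKR siRNA 1, and 248, 257 and 239 under PKR siRNA 2. In the second run the libraries held 68.0, 59.0 and 74.6 with DMSO, 99.97, 112 and 122 at 400 nM C16, and 86.7, 92.6 and 94.5 at 800 nM. The PKR siRNA 1 libraries lay below and the PKR siRNA 2 libraries above all controls, and all C16 libraries lay above DMSO. NEU1 rose by 0.77 on the log2 scale with PKR siRNA 2 (standard error 0.10, limma adjusted p = 2.72e-10) and by 0.72 at 400 nM (standard error 0.13, limma adjusted p = 1.36e-05). At 800 nM its log2 fold change of 0.44 (standard error 0.13) lay below the fold threshold. The gene model of NEU1 in the files spans 8 contigs, so its reads are uncertain.

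Among the other glycan hydrolases, HEXA (the alpha subunit of beta-hexosaminidase) fell with PKR siRNA 2 (-0.70 on the log2 scale, standard error 0.09, limma adjusted p = 5.56e-11) and MAN2B1 (alpha-mannosidase) at 800 nM C16 (-0.64, standard error 0.19, limma adjusted p = 0.00592). The MAN2B1 call was lost without DMSO replicate 3 (-0.58) or C16 800 nM replicate 1 (-0.54) and with a pseudocount of 5 (-0.57). GLB1, GAA, GUSB, NAGLU and SGSH, which act on galactosides, glycogen, glucuronides and heparan sulfate, were called against no control. Of these, GAA (acid alpha-glucosidase), with its pair of palindromes, stood at log2 fold changes of 0.13 and -0.07 with the siRNAs and -0.52 and -0.49 with C16. MCOLN1, which also has a palindrome, is the member that rose throughout.

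Of the 5 hydrolases of lipids and phosphate, PPT1, SMPD1 and LIPA were called against a control besides ACP2. Of all genes tested in both runs, 49.9% were called in at least 1 such comparison. LIPA, the lysosomal acid lipase that splits cholesteryl esters and triglycerides, stood at 253, 259 and 259 normalized counts under the control siRNA, 325, 339 and 343 under PKR siRNA 1, and 134, 179 and 168 under PKR siRNA 2. In the C16 run it stood at 186, 200 and 215 with DMSO, 265, 291 and 318 at 400 nM C16, and 316, 359 and 283 at 800 nM. The PKR siRNA 1 libraries lay above and the PKR siRNA 2 libraries below the controls, and all C16 libraries lay above DMSO. LIPA fell by 0.68 on the log2 scale with PKR siRNA 2 (standard error 0.09, limma adjusted p = 2.16e-10) and rose by 0.67 at 800 nM (standard error 0.09, limma adjusted p = 1.25e-08). Without PKR siRNA 2 replicate 1 the first value was -0.56, and without C16 800 nM replicate 2 the second was 0.58, both under the fold threshold. PPT1, palmitoyl-protein thioesterase 1, rose by 0.99 with PKR siRNA 2 (standard error 0.07, limma adjusted p = 8.82e-21). SMPD1, acid sphingomyelinase, rose by 0.70 at 400 nM (standard error 0.20, limma adjusted p = 0.00681), a call lost in DESeq2 (0.73, adjusted p = 0.0560) and without DMSO replicate 3 (0.56) or C16 400 nM replicate 1 (0.58). ASAH1, acid ceramidase, was called in none of the 4 comparisons, its value of -0.58 with PKR siRNA 2 lying just short of the fold threshold.

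Of the 6 membrane proteins, LAMP1 and LAMP2, the glycoproteins that line the inner face of the membrane, responded differently to the siRNAs. LAMP1 (chr13:113297154-113323426, plus strand) stood at 349, 363 and 316 normalized counts under the control siRNA, 612, 624 and 641 under PKR siRNA 1, and 715, 619 and 675 under PKR siRNA 2. The values of the C16 run were 344, 310 and 334 with DMSO, 387, 397 and 392 at 400 nM C16, and 377, 433 and 392 at 800 nM. All treated libraries lay above their controls, with C16 by less than the fold threshold. LAMP1 rose by 0.87 and 0.96 on the log2 scale with PKR siRNA 1 and 2 (standard error 0.07 each, limma adjusted p = 1.10e-19 and 3.28e-22), and stood at 0.25 and 0.28 at 400 and 800 nM.

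LAMP2 (chrX:120426148-120469349, minus strand) stood at 249, 235 and 301 normalized counts under the control siRNA, 273, 249 and 268 under PKR siRNA 1, and 737, 783 and 709 under PKR siRNA 2. In the second run the libraries held 343, 299.99 and 302 with DMSO, 389, 348 and 366 at 400 nM C16, and 391, 390.0 and 336 at 800 nM. The PKR siRNA 1 libraries lay within the control range and the PKR siRNA 2 libraries stood far above it. LAMP2 rose by 1.51 on the log2 scale with PKR siRNA 2 (standard error 0.07, limma adjusted p = 5.01e-30), against 0.02 with PKR siRNA 1, and the difference between the siRNAs was 1.49 (standard error 0.07, limma adjusted p = 8.70e-30). With C16 its log2 fold changes of 0.22 and 0.24 were not called.

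SCARB2 (LIMP-2), an abundant glycoprotein of the lysosomal membrane, fell with PKR siRNA 1 (-0.66 on the log2 scale, standard error 0.10, limma adjusted p = 9.33e-08), a call lost without PKR siRNA 1 replicate 2 (-0.52). The tetraspanin CD63 and the cholesterol transporter NPC1 were called against no control, CD63 ranging from -0.40 to 0.29 and NPC1 from -0.06 to 0.56 in log2 fold change.

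Of the 4 V-ATPase members only ATP6V1H was called against a control, beside 49.9% of all genes tested in both runs. ATP6V1H is the regulatory H subunit of the cytosolic sector. It stood at 154, 132 and 139 normalized counts under the control siRNA, 138, 119 and 115 under PKR siRNA 1, and 73.6, 91.1 and 64.0 under PKR siRNA 2. In the C16 run it stood at 45.7, 64.8 and 52.5 with DMSO, 72.3, 73.8 and 88.3 at 400 nM C16, and 103, 99.9 and 108 at 800 nM. The PKR siRNA 2 libraries lay below the controls and all C16 libraries above DMSO. ATP6V1H fell by 0.90 on the log2 scale with PKR siRNA 2 (standard error 0.12, limma adjusted p = 1.06e-09) and rose by 0.93 at 800 nM (standard error 0.14, limma adjusted p = 1.53e-07). ATP6V1A, the catalytic subunit, stood at 0.50 with PKR siRNA 2, and ATP6V0D1 and ATP6AP1 stood between -0.26 and 0.27 in all 4 comparisons.

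The second question was whether the siRNAs acted alike, which their direct comparison answers. Between PKR siRNA 2 and PKR siRNA 1, 11 members were higher and 5 lower with PKR siRNA 2 (29.7% and 13.5% of 37, against 16.4% and 15.3% of all genes tested). The largest differences were those of LAMP2 (1.49), IDS (-1.29), NEU1 (1.09) and LIPA (-1.07) on the log2 scale, with a standard error between 0.06 and 0.10. HEXA (-0.93), PPT1 (0.84), GRN (0.84), PSAP (0.64), ATP6V1H (-0.70) and ATP6V1A (0.67) also differed, as did GLA, CTSB, CTSZ and MITF with the values given above. ACP2 was higher with PKR siRNA 2 (0.66), having fallen less, but that call was lost without PKR siRNA 1 replicate 3 (0.55) or PKR siRNA 2 replicate 3 (0.58), and SCARB2 (0.71) was lost without PKR siRNA 1 replicate 2 (0.57). Members called with both siRNAs that did not differ detectably were TPP1, LAMP1, MCOLN1 and FUCA1, the last with a 95% interval of the difference from -0.29 to 0.48. Of the 6 epithelial markers, 4 were higher with PKR siRNA 2 than with PKR siRNA 1 (KRT8 by 1.93, KRT18 by 0.92, KRT19 by 1.92 and CDH1 by 2.19 on the log2 scale), KRT7 was lower (-1.22) and EPCAM was not called (-0.18). COL1A1, a fibroblast collagen, was higher by 2.08. It stood at 95.2 normalized counts under the control siRNA, 25.6 under PKR siRNA 1 and 110 under PKR siRNA 2, so PKR siRNA 1 was the group apart. The part of these markers in the members' differences was not tested. The markers of blood, endothelial, acinar, islet and liver cells were at or near 0, with group means of at most 3.26 normalized counts for LYZ and 2.70 for CD14.

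The third question was whether the dose of C16 mattered. Between 800 nM and 400 nM 0 members rose and 2 fell (0% and 5.26% of 38, against 1.13% and 3.95% of all genes tested), PSAP by 0.59 on the log2 scale (standard error 0.05, limma adjusted p = 4.26e-13) and ACP2 by 0.79 (standard error 0.27, limma adjusted p = 0.0355). Neither call was firm. The PSAP value lay at the fold threshold and was lost without C16 400 nM replicate 1 (-0.55) or C16 800 nM replicate 3 (-0.56). ACP2 missed the adjusted p without any 1 of 5 libraries, with values from -0.82 to -0.62 (limma adjusted p up to 0.168, without C16 800 nM replicate 3). CTSD (-0.52) and GRN (-0.42) also stood lower at 800 nM in every library, short of the fold threshold. The differences between the doses were 0.18 for GLA, -0.28 for NEU1 and 0.13 for LIPA on the log2 scale, none of them called.

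**Figure D4:**
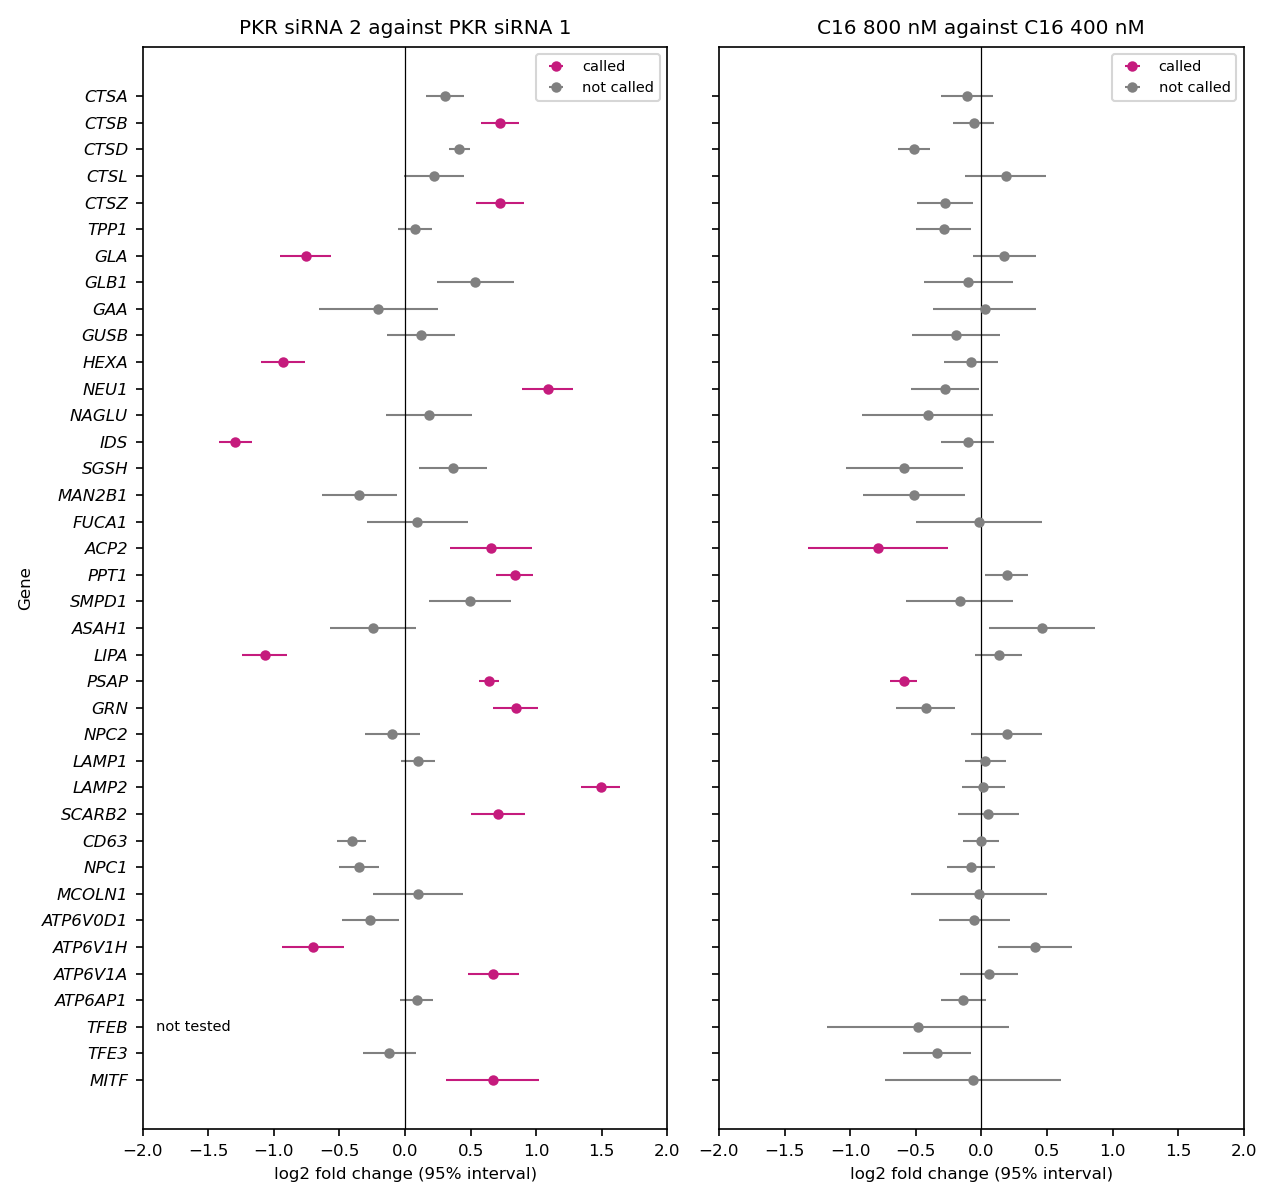
Log2 difference (horizontal axis) with its 95% interval for each member between PKR siRNA 2 and PKR siRNA 1 (left) and between 800 nM and 400 nM C16 (right); called members are in magenta. The differences between the siRNAs reach from -1.29 to 1.49, whereas those between the doses stay within -0.79 and 0.46.

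PKR siRNA 2 and 800 nM C16, which share no libraries, were set side by side. Of the 37 members tested in both runs, 7 were called in both comparisons (18.9%, against 8.25% of all 9821 genes). MCOLN1 rose in both and ACP2 fell in both, so that 2 of the 7 were called in the same direction, against 20% of the 810 genes called in both. CTSD, PSAP and GRN rose with PKR siRNA 2 and fell at 800 nM, and LIPA and ATP6V1H fell with PKR siRNA 2 and rose at 800 nM.

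**Figure D5:**
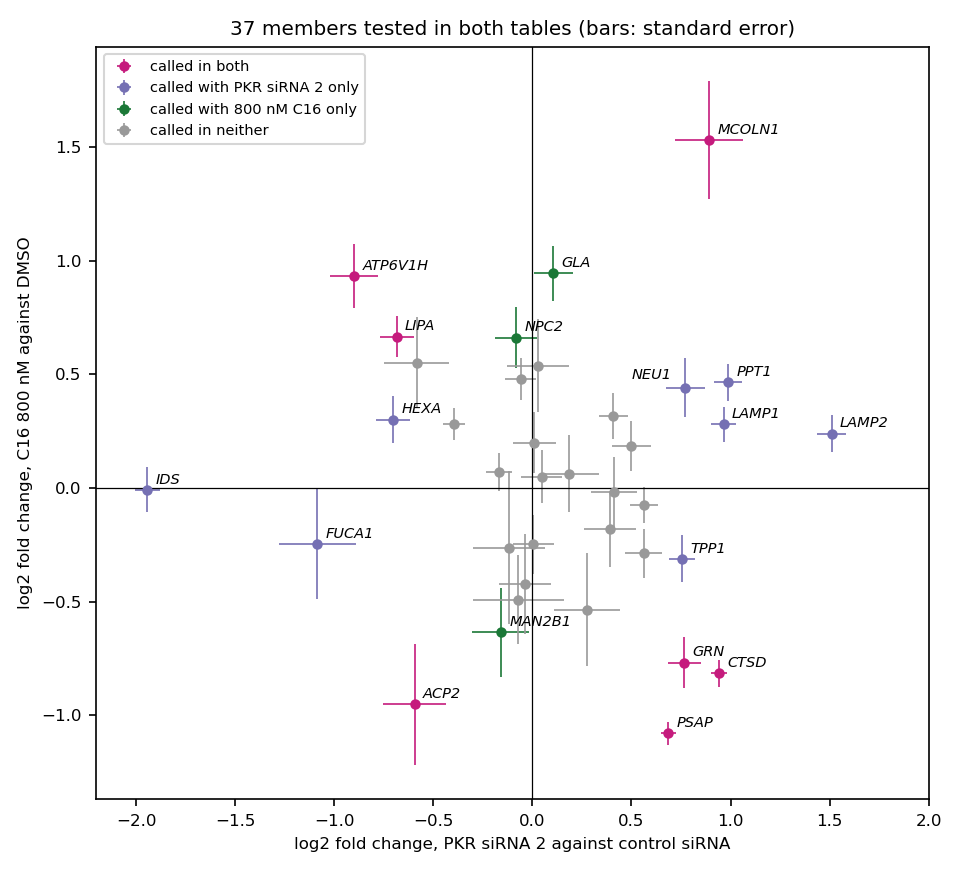
Log2 fold change with PKR siRNA 2 against the control siRNA (horizontal axis) and with 800 nM C16 against DMSO (vertical axis) for the 37 members tested in both runs, with standard errors (bars); colours mark the comparisons in which a member was called. Of the 7 members called in both, MCOLN1 and ACP2 lie in the quadrants of like sign and CTSD, PSAP, GRN, LIPA and ATP6V1H in those of opposite sign.

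Of the 8 members with CACGTG in the promoter window, 4 were called in at least 1 comparison with a control (MCOLN1, LAMP1, NEU1 and CTSD), against 49.9% of all genes tested in both runs. Each of these 4 rose in at least 1 comparison, and CTSD also fell, at 800 nM C16. Of the 21 members whose window held no match, 13 were called, 7 of them higher and 8 lower in at least 1 comparison. The share of all genes that rose, or fell, in at least 1 comparison was not worked out. No tendency to rise or fall is therefore read from these counts. ATP6V0D1, CTSA, GAA and CD63, whose E-boxes are printed above, were called against no control.

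A further 100 genes of the lysosome and its regulation, from hydrolases and membrane transporters to sorting receptors, V-ATPase subunits and the kinases and GTPases that control TFEB, were listed for comparison, and 93 were tested in the siRNA run and 89 in the C16 run. With PKR siRNA 1, 4 rose and 15 fell (4.30% and 16.1% of 93, against 8.53% and 12.6% of all genes tested). The rises were led by CTSF, a cysteine cathepsin (1.10 on the log2 scale), and PPP3CC (0.81). PPP3CC is a catalytic subunit of calcineurin, the phosphatase that can dephosphorylate TFEB. It was low, at 11.5 normalized counts under the control siRNA and 20.9 under PKR siRNA 1. The more abundant catalytic subunits did not rise, PPP3CA standing at 85.1 and 48.9 and PPP3CB at 109 and 107. The falls were led by the sorting receptor SORL1 (-2.82) and the amino acid sensor SLC38A9 (-1.30). With PKR siRNA 2, 9 rose and 9 fell (9.68% each, against 10.8% and 12.8% of all genes tested), led by CTSH (1.26), an aminopeptidase, and GNPTAB (1.09), which helps to make the mannose 6-phosphate tag, and by SORL1 (-2.29) and the channel MCOLN3 (-1.66).

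At 400 nM C16 12 of these genes rose and 4 fell (13.5% and 4.49% of 89, against 7.08% and 5.45% of all genes tested), and at 800 nM 17 rose and 14 fell (19.1% and 15.7%, against 11.6% and 14.1%). CD68, a lysosomal membrane glycoprotein, rose by 1.55 at 400 nM on the log2 scale, and RRAGD, a GTPase of the amino acid pathway, by 1.32 at 400 nM and 1.67 at 800 nM. FNIP2, a partner of folliculin, rose by 1.37 at 800 nM. CTSH fell by 0.92 at 400 nM and 1.55 at 800 nM, and the calcineurin subunit PPP3CB by 0.74 at 400 nM. The 13 other V-ATPase subunits were all tested. At 800 nM 4 of them rose and 0 fell (30.8% and 0%, against 11.6% and 14.1% of all genes tested), with a median log2 fold change of 0.52 against 0.00 over all genes. At 400 nM 0 of the 13 were called, with a median of 0.32, and with the siRNAs 0 rose and 1 fell, with PKR siRNA 2.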

How the data were processed

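Poly(A)-selected RNA was made into directional libraries. TopHat (mapping, hg38), featureCounts (counting) and TCC (TMM normalization, each run apart) were used by the authors. The annotation and strand setting are not given in the sources used here, nor whether replicates were separate cultures, so p-values measure the spread between libraries, which may be technical. The deposited values are a normalized signal, reads times a factor per library. In every library 100% were whole multiples of 1 read (tolerance 0.01), although in PKR siRNA 2 replicate 1 and C16 800 nM replicate 1 that value lies near 1. The number of columns not assigned to a sample was 0. The 400 nM dose comes from the labels alone.

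limma 3.58.1 (R 4.3.3) with a trend, two-sided, was fitted to all 9 libraries of a run, on log2 values with a pseudocount of 1, for genes whose mean reached 10. This scale understates changes of low genes. The scripts were tested on simulated reads. Alternatives were a higher (30) or no minimum mean, pseudocounts of 0.5 and 5, rescaling by the median of ratios, the 2 groups alone, a replicate block, edgeR 4.0.16 and DESeq2 1.42.0 on recovered reads, and each library left out. Replicates differed by more than sampling noise in all 18 pairs (chi-square per degree of freedom 1.03 to 1.63).

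Members and lists were chosen with earlier results of these data known. Values in every library are given for MCOLN1, ACP2, the 3 factors, members called in at least 2 of the 4 comparisons with a control, and members that differed between the siRNAs by over 1 on the log2 scale; for the other lysosome genes, up to 2 called rises and 2 falls per comparison are named, except 1 gene that is not reported here. Levels between genes were compared per kilobase of gene model, leaving out NEU1. Exon overlaps were taken from the deposited gene models, and promoters from RefSeq.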

Additional observations from a re-analysis of the deposited data

How the results depend on the processing

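Of 56 calls of a member in a comparison, 45 held under every alternative that tested the gene. The other 11 were lost under at least 1, each also when a single library was left out. At a minimum mean of 30, MCOLN1 and ACP2 were not tested in the C16 run, and their calls there were not counted as lost. Their highest group means in that run were 28.3 and 25.2 normalized counts. edgeR lost 3, DESeq2 3 (with no adjusted p for 1 more), a pseudocount of 5 lost 2, rescaling 2, no filter 1 and a fit of the 2 groups alone 1. No pairing of libraries by replicate number was seen. Deviations of same-numbered libraries correlated from -0.03 to 0.03 in the siRNA run and from -0.05 to 0.02 in the C16 run. A fit with the replicate block lost 0 calls. Much of the spread between replicates was sampling noise (chi-square per degree of freedom 1.03 to 1.63), so these correlations cannot exclude a pairing. Rescaling moved the median of all genes by at most 0.02. Depth limits what can be said of members with few reads. TFEB was below the filter in the siRNA run, and MCOLN1 stood at 8.88 normalized counts with DMSO.

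Members lower at 800 nM than at 400 nM numbered 2, and 1 with no filter, a minimum mean of 30, rescaling or the 2 groups alone, and 0 in edgeR and DESeq2; without 1 library they numbered 0 to 3. Members lower at 400 nM than with DMSO numbered 0, and 0 to 1 without 1 library. Over all genes, a minimum mean of 30, which tests fewer genes, left 296 lower at 400 nM (543 otherwise), 800 lower at 800 nM (1403) and 231 lower between the doses (394). Between the doses DESeq2 called 51 higher (113 in limma) and 137 lower; the cause was not tested. The sign turned for TFE3 with PKR siRNA 2 (-0.070 to 0.14 without 1 library, among them -0.055 without control siRNA replicate 1 and -0.030 without PKR siRNA 2 replicate 2), for TFE3 at 400 nM (-0.017 to 0.16, the lowest without C16 400 nM replicate 3) and for TFEB at 800 nM (-0.016 to 0.62, the lowest without DMSO replicate 2); none of these values was called.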
